A study of Mus musculus with 9 samples.

Results

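Doublecortin (Dcx) and 8 other genes known from immature neurons were followed through the layers of mouse piriform cortex: Dpysl3, Ncam1, St8sia2, St8sia4, Sox4, Sox11, Igfbpl1 and Cd24a. These 9 genes were picked by name, out of 33940 genes with an annotated transcript among the counted features, and each gene was represented by the transcript with the highest mean count over all samples. The amplified RNA came from wild-type C57BL/6 mice, with no treatment, whose frozen coronal brain sections had been cut with a laser along the borders of the cortical layers. The labels give an age of 8 weeks. The methods of the study give an older age for the sectioned brains. For its adult male mice in general they give a range of ages that includes 8 weeks. The 9 samples fall into 3 groups, layers A, B and C, each with 3 replicates. Neither source says which letter stands for layer I, II or III, so the letters are kept. Levels of some genes that the study lists by layer are given with the cell type markers below. Nothing states that replicates came from separate animals, and p-values therefore measure only the spread between these samples, which may be technical.

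Piriform cortex is the largest cortical target of the olfactory bulb, and layer II is known in rodents for neurons that keep an immature character in the adult, with doublecortin and polysialylated NCAM as their usual markers. Polysialic acid is a long sugar chain that St8sia2 and St8sia4 build on NCAM, the protein of Ncam1, and that loosens adhesion between cells. Dcx and Dpysl3 act on the microtubules and actin of growing processes, and Sox4 and Sox11 are transcription factors that switch on neuronal genes in young neurons. Most of these genes are also used by other cells of the adult brain: Dcx is the narrowest of them, whereas Ncam1 is made by nearly all neurons and glia and St8sia4 by precursors of oligodendrocytes as well.

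The sequences that bear on the results below are shown first. The 2 Ncam1 transcripts that the deposited tables count share their coding exons, apart from 3 bases, up to a junction on chromosome 9 (minus strand, mm10) and then part. The shared bases chr9:49520035-49520064 are printed in lower case, and the first 60 coding bases that follow in each transcript, at chr9:49509853-49509912 and chr9:49517523-49517582, in capitals.
ENSMUST00000166811: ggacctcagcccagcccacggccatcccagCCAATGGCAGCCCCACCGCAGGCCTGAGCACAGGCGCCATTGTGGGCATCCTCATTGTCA
ENSMUST00000114476: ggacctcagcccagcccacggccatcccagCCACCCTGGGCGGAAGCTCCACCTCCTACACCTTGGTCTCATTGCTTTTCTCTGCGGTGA
The coding sequence is 2550 bases long in the first and 2178 bases in the second, stop codon included, and 446 and 77 of these bases come after the junction. The longer end belongs to a form of NCAM that spans the membrane, and the shorter end to the form that is held by a lipid anchor.

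Promoter windows of RefSeq on GRCm38.p6, from 250 bases before to 50 bases after an annotated gene start, were found for 5 of the 9 genes, namely Dcx, St8sia2, St8sia4, Sox4 and Sox11. For Dcx there are 2 overlapping windows, for gene starts at bases 143933219 and 143933124 of chromosome X, and neither start is that of its most abundant transcript (143933311); the second window is printed because it holds a motif match. Those of Dcx and of the polysialyltransferases are shown because the results below turn on these genes. All lie on the minus strand, at chrX:143933075-143933374 (Dcx), chr7:74013633-74013932 (St8sia2) and chr1:95667545-95667844 (St8sia4). Capitals mark matches, on either strand, to the SOX motif letters ACAAAG or ACAATG or to the E-box letters CAGATG or CAGCTG.
Dcx: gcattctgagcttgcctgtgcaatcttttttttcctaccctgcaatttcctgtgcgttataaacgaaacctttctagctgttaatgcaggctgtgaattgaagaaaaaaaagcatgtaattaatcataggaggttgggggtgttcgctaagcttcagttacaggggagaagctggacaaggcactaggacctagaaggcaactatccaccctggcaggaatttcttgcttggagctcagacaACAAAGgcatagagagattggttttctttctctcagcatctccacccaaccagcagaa
St8sia2: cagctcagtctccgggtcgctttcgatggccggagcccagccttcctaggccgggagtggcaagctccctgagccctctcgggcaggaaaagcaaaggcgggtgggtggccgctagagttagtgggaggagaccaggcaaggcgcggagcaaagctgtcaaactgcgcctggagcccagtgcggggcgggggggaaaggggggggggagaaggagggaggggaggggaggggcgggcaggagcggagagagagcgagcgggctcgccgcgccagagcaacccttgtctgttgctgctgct
St8sia4: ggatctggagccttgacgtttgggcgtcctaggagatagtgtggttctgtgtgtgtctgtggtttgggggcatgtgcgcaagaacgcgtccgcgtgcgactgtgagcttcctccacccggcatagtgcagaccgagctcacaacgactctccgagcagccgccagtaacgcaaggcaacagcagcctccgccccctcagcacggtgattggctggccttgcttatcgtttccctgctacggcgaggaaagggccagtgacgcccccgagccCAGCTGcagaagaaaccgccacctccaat
The printed Dcx window held a match to ACAAAG and the St8sia4 window a match to CAGCTG. The windows of Sox4 and Sox11, which are not printed, each held a match to CAGCTG as well. The other Dcx window (chrX:143933170-143933469) and the St8sia2 window held none of these letters. Of 32851 promoter windows of this length, 18.7% held ACAAAG, 12.6% ACAATG, 16.3% CAGCTG and 17.15% CAGATG, so such matches are common. The printed Dcx window and the St8sia4 window differed in base composition, with 44.7% and 61.3% of G and C, and the St8sia2 window had 68.7%.

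Total counts ranged from 23104306 to 76471683 per sample over 95533 transcripts, and a count of 3 was taken as the floor of detection. Mitochondrial transcripts took 56.4 to 72.6% of the counts in layer A, 13.1 to 30.1% in B and 21.2 to 59.0% in C. Levels are therefore given as normalized CPM, counts scaled to a common library total after the total of each sample is adjusted by the trimmed mean of M-values (TMM), and differences as fitted log2 fold changes with their standard error (SE). An edgeR quasi-likelihood test was run on all 56416 transcripts that reached 10 counts in 3 or more samples, and a transcript was called at an adjusted p (Benjamini-Hochberg over all of them) under 0.05. Of the 9 immature neuron genes, 8 passed this filter, and Igfbpl1 did not. On the scale of normalized CPM the floor of 3 counts was 0.0748 to 0.254 in layer A, 0.0624 to 0.0693 in B and 0.0256 to 0.191 in C. Without molecular identifiers in the reads, the floor covers counting error only.

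The layers differed in markers of cell types other than neurons, and these values stand beside every result here. The summed normalized CPM of 12 astrocyte genes was 5043 to 10545 in layer A, 691 to 1180 in B and 1239 to 1709 in C, and all 12 were called lower in both other layers. All 8 meningeal genes and all 9 tested genes of oligodendrocyte precursors were also called lower in layer B than in layer A. For the precursors the summed level was 154 to 227 in layer A, 25.9 to 53.2 in B and 63.0 to 95.9 in C. The part of these cells in the differences of the immature neuron genes was not tested, and in bulk tissue fewer cells of a type and less RNA per cell cannot be told apart. Of 6 endothelial and 6 microglia genes, 6 and 4 were called lower in layer B than in layer A, as were 2 of 8 oligodendrocyte genes (edgeR). This count of 2 was 7 without layer B replicate 3, 6 with the replicate number as a block, 1 without layer A replicate 2 or 3 or layer C replicate 1, and 0 without layer A replicate 1 or layer B replicate 1 or 2. Of 10 interneuron genes, 1 was called higher and 2 lower (Gad2 and Reln) in layer B than in layer A. The study found Reelin protein in layer IIa mostly in excitatory neurons, so Reln does not mark interneurons alone. The counts higher and lower were 0 and 0 without layer A replicate 1, and 0 and 1 without layer A replicate 2. They were 0 and 3 without layer B replicate 3, 2 and 1 without layer B replicate 1, and 3 and 1 without layer B replicate 2. Ependymal and choroid plexus genes were near 0 in all layers, with summed levels of at most 1.67. Tbr1 and Slc17a7, markers of cortical excitatory neurons, were present in every layer, with mean normalized CPM of 24.7, 51.5 and 36.8 (Tbr1) and 116, 249 and 189 (Slc17a7) in layers A, B and C. The study lists Neurod6 and Sst as enriched in layer III over layer I, and Lhx6 in layer III over layer II. Neurod6 is also listed for layer II over layer I. Their means in layers A, B and C were 0.511, 2.73 and 7.70 (Neurod6), 5.12, 27.2 and 62.5 (Sst) and 2.24, 2.70 and 10.9 (Lhx6), each highest in layer C. Reelin is listed for layer II over layer III. The means of Reln, from a transcript other than the listed one, were 92.9, 47.7 and 17.4 in layers A, B and C.

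Dcx was highest in layer B. Its normalized CPM was 15.7, 16.6 and 17.2 in layer A (replicates 1, 2 and 3), 32.8, 27.3 and 30.8 in B, and 17.1, 23.1 and 17.5 in C. Every layer B sample lay above every sample of layers A and C, whereas layers A and C overlapped. Relative to layer A, the level in layer B was 1.84-fold higher, a log2 fold change of 0.88 (SE 0.28, adjusted p = 0.0405, edgeR quasi-likelihood test). The log2 difference of layer C minus layer B was -0.66 (SE 0.27, unadjusted p = 0.0295, adjusted p = 1.0), and that of layer C minus layer A was 0.22 (SE 0.28, adjusted p = 0.699). The call between layers A and B was close to the threshold: leaving out any 1 library except layer C replicate 2 ended it, with adjusted p from 0.0509 to 0.177, while the log2 fold change stayed between 0.78 and 0.92. It also ended at an adjusted p of 0.05001 when mitochondrial transcripts were left out and at 0.0854 when only the 6 samples of the 2 layers were fitted.

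Of the 8 tested genes, 1 (Dcx) was called between layers A and B, where 5.83% of all transcripts tested were called higher in layer B and 10.7% higher in layer A. At an unadjusted p under 0.05, 2 of the 8 (Dcx and St8sia4) and 29% of all transcripts differed between these layers, so neither count, taken over both directions, is above the share of all transcripts. None of the 8 was called between layers A and C, where 4.35% of transcripts were called higher in layer C and 6.98% higher in layer A, and 1 of the 8 (Ncam1) had an unadjusted p under 0.05, as had 24.5% of all transcripts. None was called between layers B and C, where edgeR called 0% of transcripts and DESeq2 called 124 transcripts, none of them these genes. At an unadjusted p under 0.05, 3 of the 8 (Dcx, St8sia2 and Ncam1) and 4.11% of all transcripts differed between layers B and C. In the test for any difference among the 3 layers, 14.3% of transcripts and none of the 8 genes were called by edgeR, with 1 (Dcx) called by DESeq2. Without adjustment, 4 of the 8 (Dcx, St8sia2, St8sia4 and Ncam1) were under 0.05 in that test, as were 25.3% of all transcripts.

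**Figure D1:**
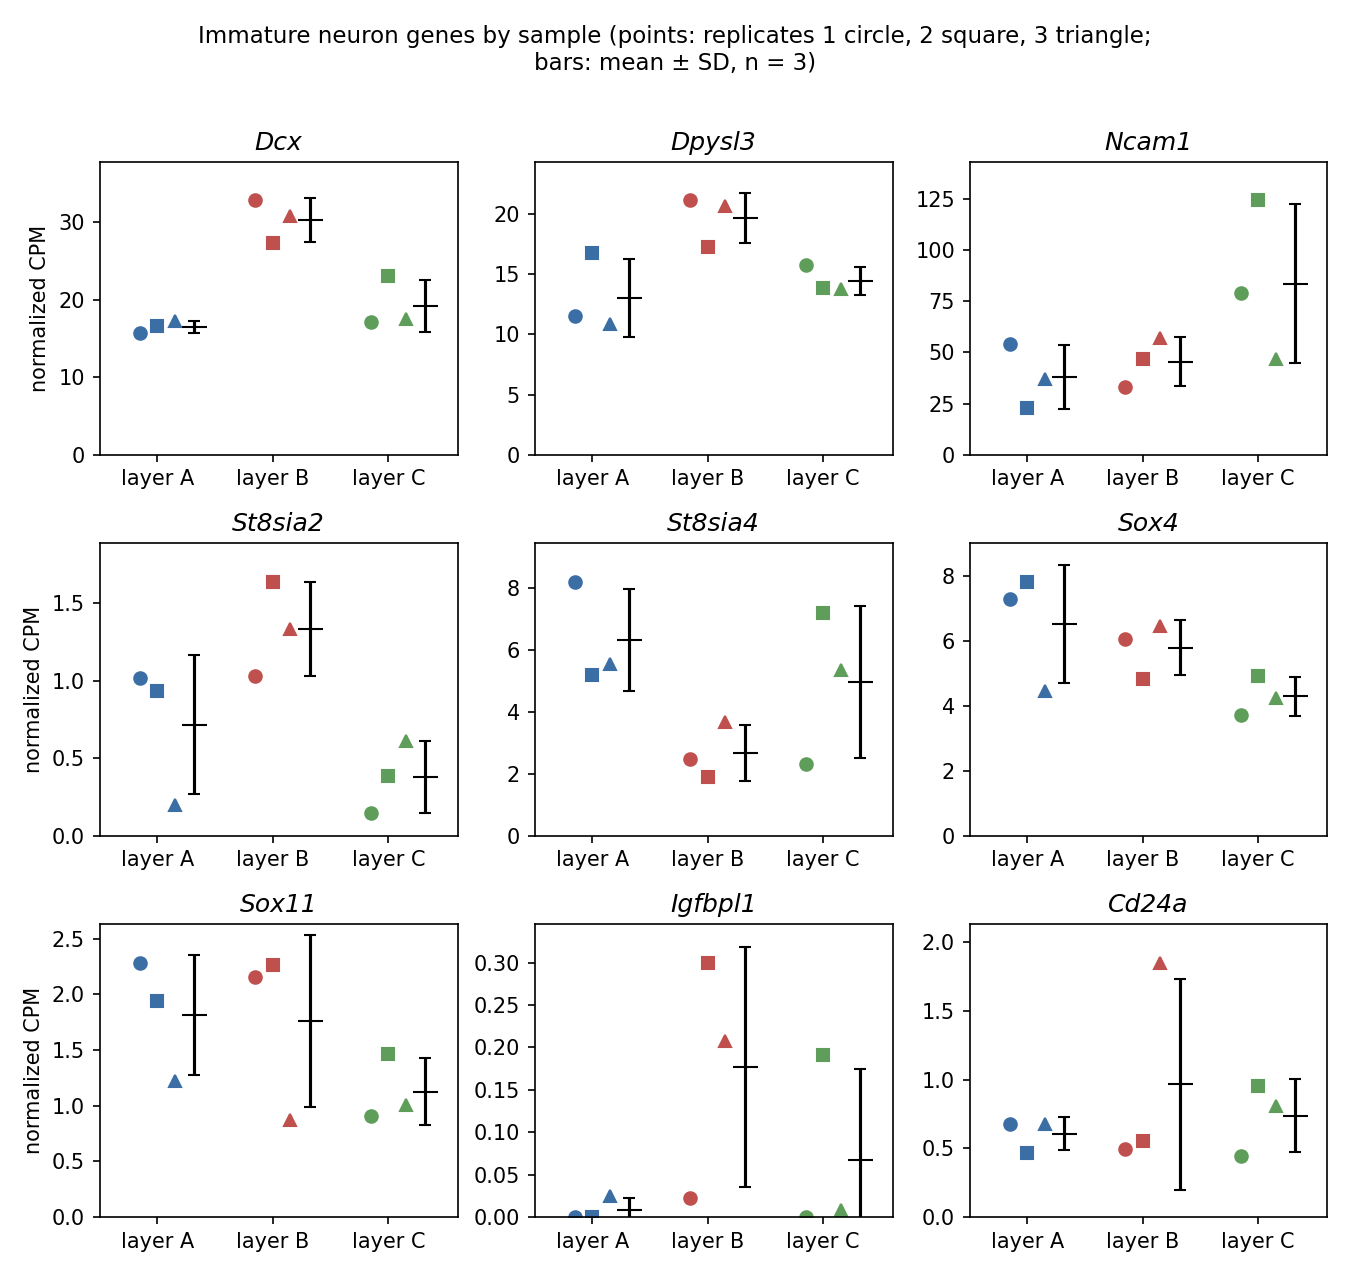
Normalized CPM (y axis, from 0) of the 9 immature neuron genes in layers A, B and C (x axis). Points are the 3 replicates, and the bars beside them give the mean and SD (n = 3). The 3 layer B samples of Dcx sit between 27.3 and 32.8, above all other samples, whereas those of St8sia4 lie between 1.92 and 3.68, below all of layer A.

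The tables count 6 Dcx transcripts, from chrX:143855842-143933311 on the minus strand for the most abundant one (ENSMUST00000033642, 9074 bases, 7 exons), which overlap one another. The next most abundant transcript, ENSMUST00000112851, was also called between layers A and B, with a mean of 7.99 ± 0.632 (SD, n = 3) in layer A, 16.7 ± 3.21 in B and 12.01 ± 4.35 in C and a log2 fold change of 1.07 (SE 0.33, adjusted p = 0.0388, edgeR). Another 2, ENSMUST00000087313 and ENSMUST00000112856, had log2 fold changes of 1.21 and 1.32 (adjusted p = 0.0460 and 0.0446, edgeR). The remaining ENSMUST00000139920 and ENSMUST00000125768, annotated with a retained intron, had log2 differences of 1.24 and 1.14 that were not called (adjusted p = 0.139 and 0.108). Reads on shared exons may have been counted for several of them, so these are not independent measurements. The annotation holds no other gene with a stretch of at least 50 bases at 98% identity to the Dcx transcript.

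Dpysl3, whose protein CRMP4 bundles actin and binds tubulin in growing axons, had its highest levels in layer B as well. Its normalized CPM was 11.5, 16.8 and 10.8 in layer A, 21.1, 17.3 and 20.6 in B, and 15.8, 13.8 and 13.8 in C. All layer B samples lay above all others, but layer A replicate 2 (16.8) came close to the lowest of them (17.3). The log2 difference of layer B minus layer A was 0.60 (SE 0.30, adjusted p = 0.198, edgeR), and that of layer C minus layer B was -0.45 (SE 0.29, adjusted p = 1.0). Among the 8 tested genes, 3 (Dcx, Dpysl3 and St8sia2) had every layer B sample above every layer A sample, an order that 15.1% of all transcripts tested showed. The same 3 had every layer C sample below every layer B sample, as did 3.92% of all transcripts, and none had every layer C sample above every layer B sample (4.67% of all transcripts) or above every layer A sample (14.5%).

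The polysialyltransferases had fitted differences of opposite sign between layers A and B, and neither was called. St8sia2 is the enzyme of the developing brain, and St8sia4 the one that prevails in the adult. St8sia2 (chr7:73939119-74013674) was scarce, with counts of 12, 14 and 8 in layer A, 46, 71 and 64 in B, and 6, 6 and 72 in C. In normalized CPM these were 1.02, 0.935 and 0.199 in layer A, 1.03, 1.64 and 1.33 in B, and 0.147, 0.383 and 0.613 in C. The lowest layer B sample was barely above the highest of layer A, and the log2 fold change of 0.98 (SE 0.67, adjusted p = 0.367, edgeR) was not called. The log2 difference of layer C minus layer B was -1.76 (SE 0.66, unadjusted p = 0.0176, adjusted p = 0.998, edgeR).

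St8sia4 (chr1:95587682-95667571) had its lowest mean in layer B. Its normalized CPM was 8.21, 5.21 and 5.56 in layer A, 2.47, 1.92 and 3.68 in B, and 2.33, 7.21 and 5.35 in C. Every layer B sample was below every layer A sample, as in 1 of the 8 tested genes and 17.2% of all transcripts, whereas layer C spanned both ranges. The log2 difference of layer B minus layer A was -1.23 (SE 0.44, adjusted p = 0.0728, edgeR), which missed the threshold. It passed without layer B replicate 3 (adjusted p = 0.0238) and with DESeq2 (adjusted p = 0.0397), and in 4 of 18 alternatives in all. Genes of oligodendrocyte precursors were lower in layer B as well, with a list median difference of -2.39 on the log2 scale and 9 of 9 called. Their defining gene Pdgfra, a growth factor receptor, had a mean normalized CPM of 45.7 ± 17.0 (SD, n = 3) in layer A, 6.80 ± 1.75 in B and 14.8 ± 2.62 in C. The summed level of the precursor genes in layer C (63.0 to 95.9) also lay below that in layer A (154 to 227), whereas St8sia4 overlapped between these layers. Any part of these cells in the St8sia4 difference was not tested.

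The ratio of St8sia2 to St8sia4 was examined after these values had been seen. It was 0.124, 0.179 and 0.0359 in layer A, 0.418, 0.855 and 0.362 in B, and 0.0632, 0.0531 and 0.115 in C. All layer B samples had higher ratios than all others. The geometric mean ratio was 5.46-fold higher in layer B than in layer A and 6.95-fold higher than in layer C, each with a two-sided exact permutation p of 0.1, the smallest that 3 against 3 samples allow, and 0.15 after adjustment over 6 such comparisons. Without layer A replicate 3, with 8 counts of St8sia2, the ratio was 3.39-fold higher in layer B than in layer A.

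Ncam1 (chr9:49505048-49798872) had the highest level per kilobase of the 9 genes and had its highest mean in layer C. Its normalized CPM was 54.1, 23.05 and 37.1 in layer A, 33.0, 46.5 and 57.0 in B, and 79.2, 124 and 47.0 in C. The 3 layers overlapped, with layer C replicate 3 inside the range of layers A and B. The log2 difference of layer C minus layer A was 1.13 (SE 0.39, adjusted p = 0.0772, edgeR), which passed without layer C replicate 3 (adjusted p = 0.0384) and without layer B replicate 3 (adjusted p = 0.0420). For the other counted transcript, ENSMUST00000114476, it was 0.26 (SE 0.34, adjusted p = 0.719). The difference of layer C minus layer B was 0.87 (SE 0.39, unadjusted p = 0.0395, adjusted p = 1.0), and that of layer B minus layer A was 0.26 (SE 0.39, adjusted p = 0.716). The exons of Ncam1 share 417 bases with Gm11149, a gene on the opposite strand, and the libraries do not keep strand, so reads there cannot be assigned to either.

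The shorter Ncam1 transcript, the one with the lipid-anchor end printed above, had a higher percentage in every layer A sample. Expressed as a percentage of the longer transcript, its counts were 76.8, 82.3 and 59.7% in layer A, 50.7, 49.5 and 25.2% in B, and 45.5, 29.3 and 55.8% in C. All layer A samples were above all samples of layers B and C. The mean was 72.9% ± 11.8 (SD, n = 3) in layer A, as against 41.8% ± 14.4 in B and 43.5% ± 13.4 in C. The test was run on the mean log2 of the ratio of the 2 transcripts. Layer A against B and layer A against C each gave a two-sided exact permutation p of 0.1 (adjusted p = 0.15 over the same 6 comparisons). This ratio too was chosen after its values were seen. Most bases of the transcripts are shared, and how shared reads were counted is not stated, so the percentages are not shares of molecules. The lipid-anchored form is known from glia, and the astrocyte and oligodendrocyte precursor lists were higher in layer A, as given above. The summed level of the oligodendrocyte list was 191 to 307 in layer A, 46.8 to 235 in B and 150 to 534 in C. In layer B, the 235 was that of replicate 3, against 46.8 and 50.7 in replicates 1 and 2. For layer B minus layer A, all 8 oligodendrocyte genes had a negative fitted log2 difference (median -1.33), and 2 were called (edgeR). For layer C minus layer A the median was 0.13, with 5 positive and 3 negative, and 0 were called. The part of glia in this ratio was not tested.

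**Figure D2:**
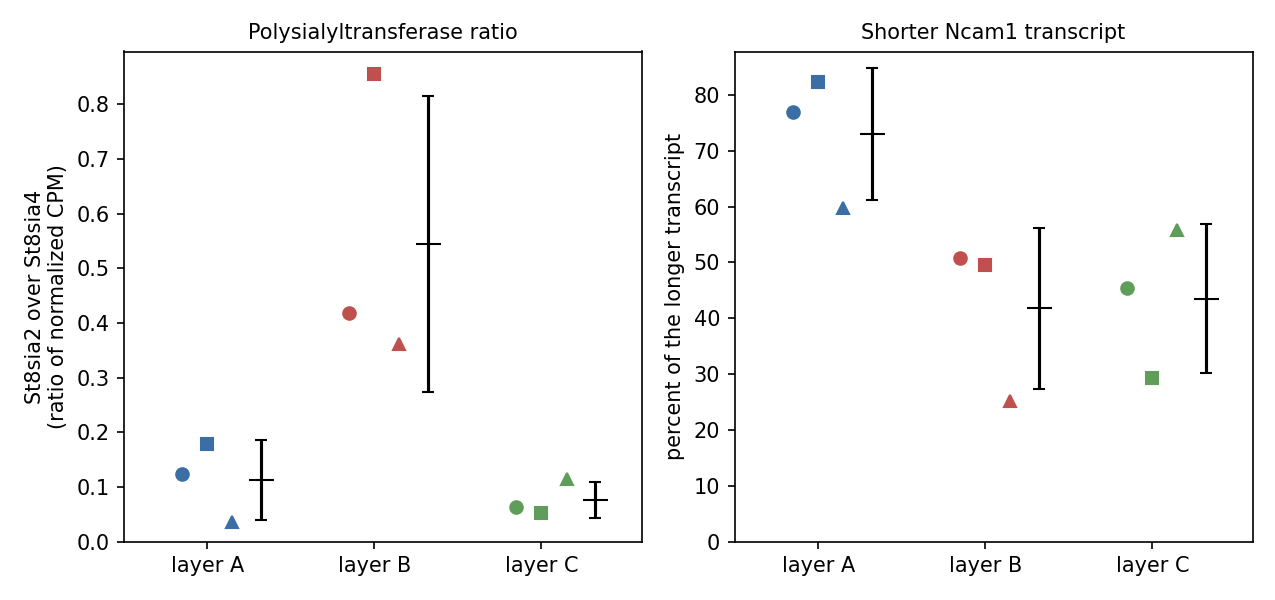
Ratio of St8sia2 to St8sia4 normalized CPM (left y axis) and counts of the shorter Ncam1 transcript as a percentage of the longer one (right y axis) in layers A, B and C (x axes). Points are replicates and bars the mean and SD (n = 3). The St8sia2 to St8sia4 ratio is highest in layer B (0.362 to 0.855), and the Ncam1 percentage is highest in layer A (59.7 to 82.3%).

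The SoxC transcription factors did not separate the layers. Sox4 (chr13:28948919-28953713) had a normalized CPM of 7.28, 7.82 and 4.44 in layer A, 6.06, 4.83 and 6.45 in B, and 3.71, 4.91 and 4.25 in C. Sox11 (chr12:27334264-27342574) had 2.29, 1.94 and 1.22 in layer A, 2.16, 2.26 and 0.874 in B, and 0.908, 1.47 and 1.01 in C. The ranges overlapped between all layers for both genes, and the lowest means were in layer C. For Sox4, the log2 difference of layer C minus layer A was -0.60 (SE 0.35, adjusted p = 0.330, edgeR) and that of layer B minus layer A was -0.16 (SE 0.35, adjusted p = 0.808). For Sox11, the corresponding differences were -0.69 (SE 0.50, adjusted p = 0.449) and -0.02 (SE 0.49, adjusted p = 0.986). The Sox4 transcript shares 2616 bases with Gm26735 on the opposite strand, so its counts are uncertain in libraries without strand.

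Igfbpl1, a secreted binding protein that is used as a marker of newborn neurons, was near the limit of detection. Its counts were 0, 0 and 1 in layer A, 1, 13 and 10 in B, and 0, 3 and 1 in C. Only layer B replicates 2 and 3 exceeded 3 counts, and the gene was not tested. Layer B replicate 1, with 1 count, overlapped the samples of the other layers.

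Cd24a, a small surface glycoprotein of young neurons that is also made by ependymal and some immune cells, showed no stable direction. Its normalized CPM was 0.677, 0.468 and 0.673 in layer A, 0.494, 0.554 and 1.85 in B, and 0.442, 0.957 and 0.809 in C. Layer B replicate 3 was far above the others of its layer, and it set the direction. The log2 difference of layer B minus layer A was 0.67 (SE 0.63, adjusted p = 0.530, edgeR) with it and -0.27 without it, and that of layer C minus layer B was -0.42 (SE 0.60) with it and 0.51 without it. Leaving out this library also moved the median log2 difference of all transcripts between layers A and B from 0.12 to -0.01. Over all transcripts tested, it correlated at 0.913 and 0.904 with layer B replicates 1 and 2, and at 0.921 to 0.945 with the layer C samples. Its summed level of oligodendrocyte genes was 235, against 46.8 and 50.7 in layer B replicates 1 and 2. Every layer B mean here includes this library.

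**Figure D3:**
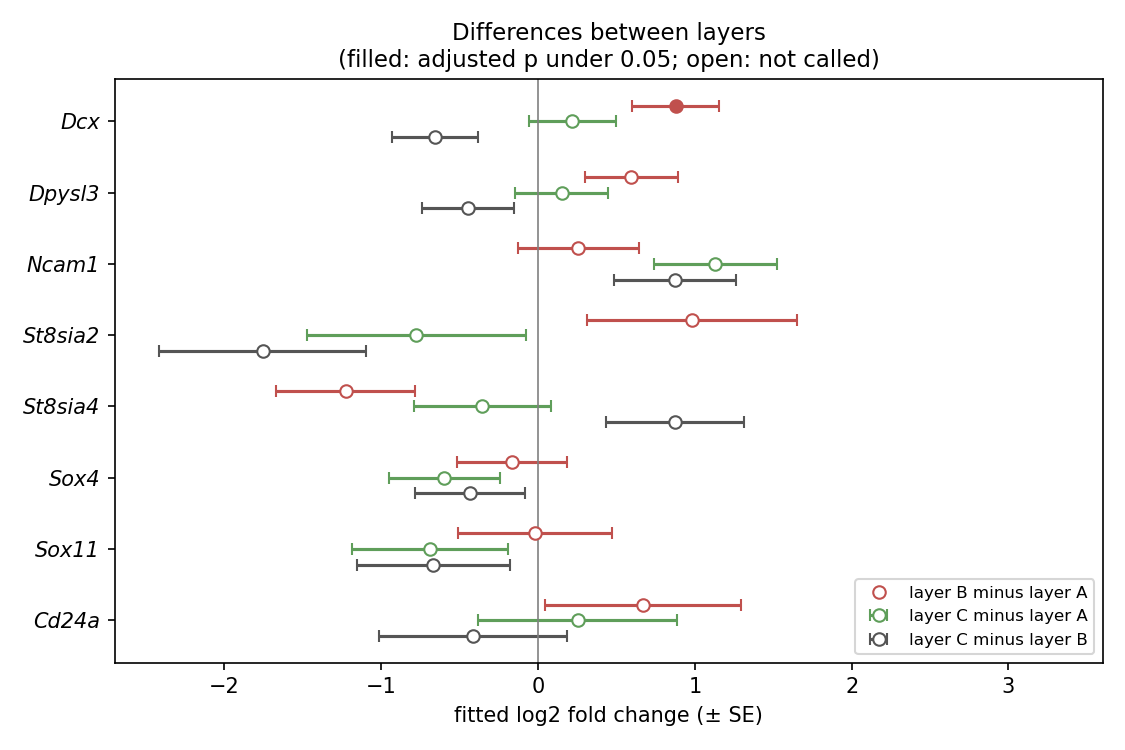
Fitted log2 fold changes (x axis) with their SE for the 8 tested immature neuron genes (y axis), for layer B minus layer A, layer C minus layer A and layer C minus layer B. Filled points have an adjusted p under 0.05, which only Dcx reached (0.88, layer B minus layer A), and open points do not. St8sia4 (-1.23) lies farthest below 0 among the differences of layer B from layer A.

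Compared per length, as normalized CPM per kilobase, the genes differed in level by orders of magnitude. In layer B, Ncam1 stood at 14.7 ± 3.88 (SD, n = 3), followed by Dpysl3 at 3.59 ± 0.382 and Dcx at 3.34 ± 0.309, a pair whose spreads overlapped. Sox4 followed at 1.21 ± 0.177. Cd24a (0.532 ± 0.423) and St8sia4 (0.499 ± 0.168) did not differ beyond their spread, nor did St8sia2 (0.249 ± 0.0565) and Sox11 (0.212 ± 0.0930), and Igfbpl1 was lowest at 0.0618 ± 0.0494. In layer A the level of St8sia4, 1.17 ± 0.305, overlapped that of Sox4, 1.36 ± 0.379, and St8sia2, at 0.134 ± 0.0838, overlapped Sox11. In all 3 layers Ncam1 had the highest level per kilobase, followed by Dpysl3 and Dcx, and Igfbpl1 the lowest.

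Several relatives of these genes differed between layers. Of 13 paralogs, all tested, 6 rose and 1 fell from layer A to layer B, and 5 were called higher and 1 lower in layer C than in layer A (edgeR). Their median log2 difference between layers A and B was 1.02, against 0.43 for the 8 tested immature neuron genes and 0.12 for all transcripts. Dclk1, a microtubule-binding kinase with doublecortin domains that is found in mature neurons, had a normalized CPM of 212 ± 12.9 (SD, n = 3) in layer A, 464 ± 66.6 in B and 606 ± 111 in C. Its log2 fold change from layer A was 1.13 (SE 0.27, adjusted p = 0.00989) in B and 1.52 (SE 0.27, adjusted p = 0.00409) in C. Unlike that of Dcx, the mean level of Dclk1 was highest in layer C. Crmp1, a relative of Dpysl3, rose by 1.40 (SE 0.30, adjusted p = 0.00549) and Ncam2, a relative of Ncam1 known from olfactory axons, by 1.02 (SE 0.32, adjusted p = 0.0403) from layer A to layer B.

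The sialyltransferases that do not build long chains were split as well. St8sia3 had a mean normalized CPM of 38.2 ± 0.916 (SD, n = 3) in layer A and 96.1 ± 35.5 in B (log2 fold change 1.33, SE 0.31, adjusted p = 0.00824, edgeR), and St8sia5, which acts on gangliosides, of 3.58 ± 1.97 and 8.74 ± 2.33 (1.26, SE 0.40, adjusted p = 0.0435). St8sia6 fell by 2.24 (SE 0.48, adjusted p = 0.00537), from 4.12 ± 2.38 to 0.860 ± 0.236. The kinase Dclk3 rose by 1.76 (SE 0.52, adjusted p = 0.0294). Sox12, the remaining SoxC gene, was at 2.66 ± 1.89, 2.90 ± 0.280 and 2.58 ± 0.322 in layers A, B and C, with an adjusted p of 0.933 between layers A and B. From layer A to layer B, 3 paralogs in place of 6 were called higher without layer A replicate 2, without layer B replicate 1 and with only the 6 samples compared. Between layers A and C, 3 in place of 5 were called higher without layer A replicate 1 or 2 and 2 without layer C replicate 1. The 1 paralog called lower in layer C was not called without layer A replicate 1 or 2, without layer B replicate 1 or 2, without any 1 of the layer C replicates, or when 1 count in any sample sufficed.

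Other genes of immature and growing neurons that were called were higher in layers B and C than in layer A, except Prox1. Of 24, all tested, 9 rose and 1 fell from layer A to layer B, and 6 were called higher in layer C than in layer A, with none lower (edgeR). Between layers B and C, edgeR called none, and 4 (Draxin, Bhlhe22, Nnat and Nrep, named for their small number after their values were seen) had an unadjusted p under 0.05. Their directions differed: the log2 difference of layer C minus layer B was -3.17 for Draxin, -1.48 for Bhlhe22 and -1.26 for Nrep, but 0.997 for Nnat. Draxin had at most 21 counts in any sample. Neurod1, a transcription factor of differentiating neurons, had a mean normalized CPM of 1.62 ± 0.161 (SD, n = 3) in layer A, 9.30 ± 2.45 in B and 5.34 ± 2.85 in C (layer B minus layer A 2.51, SE 0.46, adjusted p = 0.00196). The microtubule regulator Stmn2 rose by 1.76 (SE 0.36, adjusted p = 0.00368), the microtubule-associated protein Map1b by 1.36 (SE 0.28, adjusted p = 0.00444), and the semaphorin coreceptor Plxna4 by 1.62 (SE 0.36, adjusted p = 0.00630), all from layer A to layer B. Prox1, a transcription factor that marks dentate granule cells and some interneurons, was the 1 gene that fell (-1.53, SE 0.45, adjusted p = 0.0291), a count that was 0 without layer A replicate 1 or 2 or layer B replicate 1. Many of these genes are also expressed in mature neurons. The count of 9 was 5 without layer A replicate 2, and the count of 6 lay between 1 (without layer A replicate 2 or layer C replicate 1) and 10 (without layer B replicate 3), with 3 without layer A replicate 1 or layer C replicate 2. The count of 0 lower in layer C than in layer A was 2 with the replicate number as a block and 1 without layer C replicate 3.

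Most mature neuron genes were higher in layers B and C too. Of 12, 7 rose and 1 fell from layer A to layer B, and the same counts were called between layers A and C (edgeR). Rbfox3, which encodes the nuclear marker NeuN of mature neurons, had a normalized CPM of 21.96 ± 5.69 (SD, n = 3) in layer A, 57.5 ± 7.38 in B and 49.4 ± 12.9 in C, a log2 fold change from layer A of 1.39 (SE 0.31, adjusted p = 0.00612) in B and 1.17 (SE 0.30, adjusted p = 0.0227) in C. The synaptic genes Snap25 and Syt1 rose by 2.00 (SE 0.43, adjusted p = 0.00520) and 1.46 (SE 0.28, adjusted p = 0.00264) from layer A to layer B. Camk2a, a kinase whose messenger RNA is carried into dendrites, was the gene called lower and fell by 1.87 (SE 0.33, adjusted p = 0.00160). The count of 7 between layers A and B was 4 without layer A replicate 1 or 2 and with only the 6 samples compared, and that between layers A and C was 2 without layer A replicate 1 or 2 or layer C replicate 1 and 3 without layer C replicate 2. The 1 gene called lower in layer C than in layer A was not called without layer A replicate 1 or layer C replicate 1 or 3.

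In the list of progenitor and cell cycle genes, those called were progenitor genes, all lower in layers B and C than in layer A. Of 15, 11 were tested, and 5 were called lower in layer B than in layer A and 4 lower in layer C, with none higher (edgeR). Egfr, a growth factor receptor, fell by 3.02 (SE 0.43, adjusted p = 0.000417), the intermediate filament gene Nes by 2.84 (SE 0.57, adjusted p = 0.00330), the Notch target Hes5 by 2.31 (SE 0.48, adjusted p = 0.00405) and the transcription factor Sox2 by 2.29 (SE 0.55, adjusted p = 0.00977), all from layer A to layer B. Sox2 and Hes5 are also expressed by astrocytes, whose genes had a median log2 difference of -3.09 between these layers. Endothelial genes had a median of -3.06. The part of cells other than progenitors in any of the called genes was not tested. Mki67, a gene of dividing cells, was at 1.43 ± 0.430 normalized CPM (SD, n = 3) in layer A and 0.590 ± 0.0311 in layer B and was not called. The other tested cell cycle genes, Pcna and Mcm2, were not called either, with log2 differences of layer B minus layer A of 0.76 and -0.57. Eomes, the marker of intermediate progenitors, was below the floor of detection in every layer, with at most 1 count in any sample. Between layers A and C the count of 4 was 2 without layer A replicate 1 or 3 and 0 without layer C replicate 1.

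**Figure D4:**
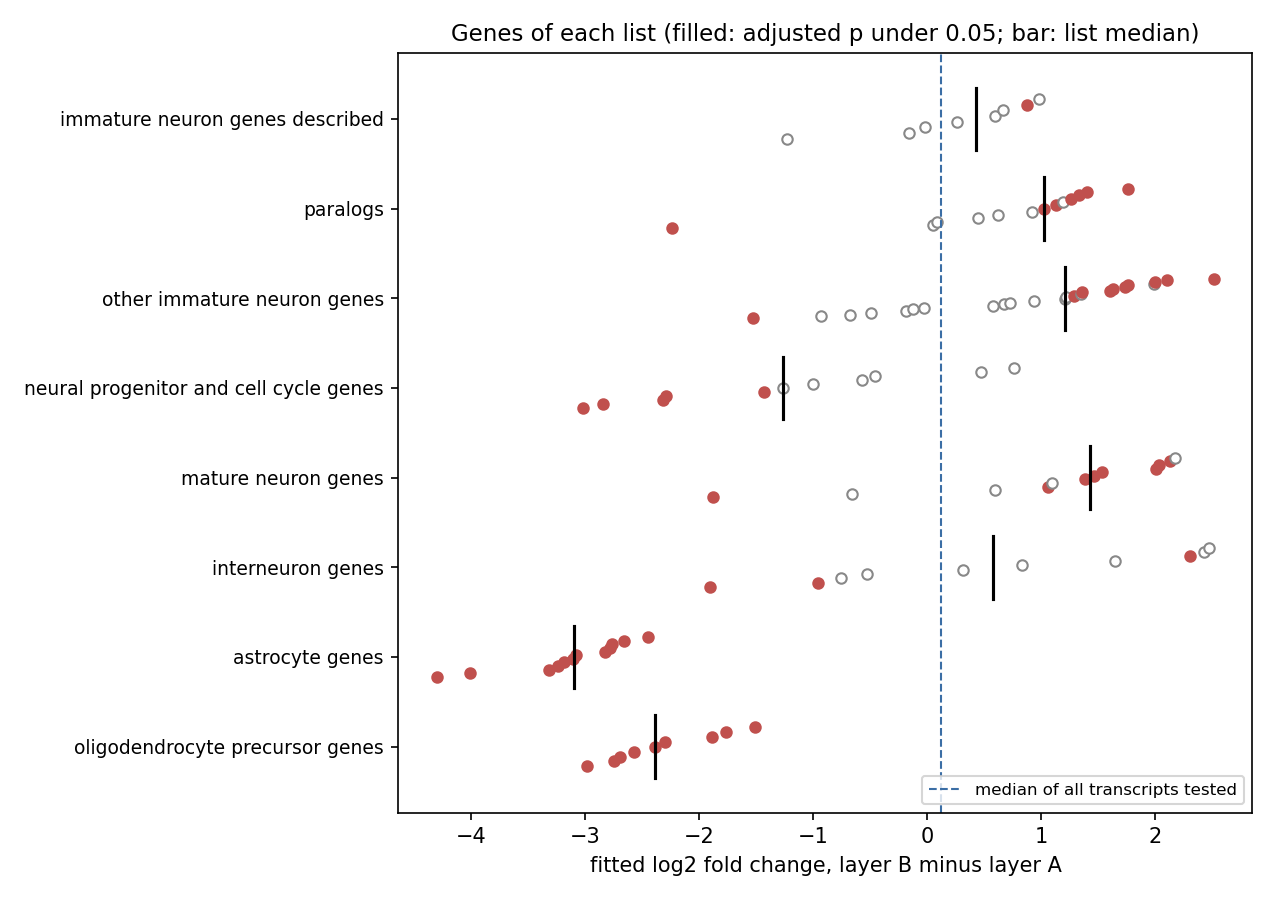
Fitted log2 fold changes, layer B minus layer A (x axis), of the tested genes of 8 lists (y axis). Each point is a gene, filled where its adjusted p is under 0.05; black bars are list medians and the dashed line is the median of all transcripts tested (0.12). The 9 immature neuron genes (8 tested, median 0.43) lie between the progenitor genes (median -1.27) and the mature neuron genes (median 1.42).

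The level of each immature neuron gene was also divided by that of Rbfox3 in the same sample. The Dcx to Rbfox3 ratio was 0.911, 0.810 and 0.610 in layer A, 0.570, 0.420 and 0.615 in B, and 0.272, 0.625 and 0.360 in C. For tests, 0.5 was added to both levels before the log2 ratio was taken. On this scale layer A no longer lay below layer B, and the ranges overlapped. The log2 difference of layer B minus layer A was -0.54 (two-sided exact permutation p = 0.2), opposite in sign to that of the level itself, and that of layer C minus layer A was -0.95 (exact p = 0.2). Over 27 such comparisons, 3 of them of Igfbpl1, whose ratios at counts near 0 follow the added 0.5 and are not read, no adjusted p was under 0.245, and none can go below 0.1 unadjusted with 3 samples against 3. The ratios of Sox4, Sox11 and St8sia4 in layer A lay above all those of layers B and C, with log2 differences of layer B minus layer A of -1.52, -1.46 and -2.50 (exact p = 0.1 each). With the geometric mean of the 12 mature neuron genes as the reference, the Dcx difference of layer B minus layer A was -0.15 (exact p = 0.6) and that of layer C minus layer A was -0.96 (exact p = 0.1). With this reference the Sox11 ratios of layers A and B overlapped (layer B minus layer A -1.08, exact p = 0.3).

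**Figure D5:**
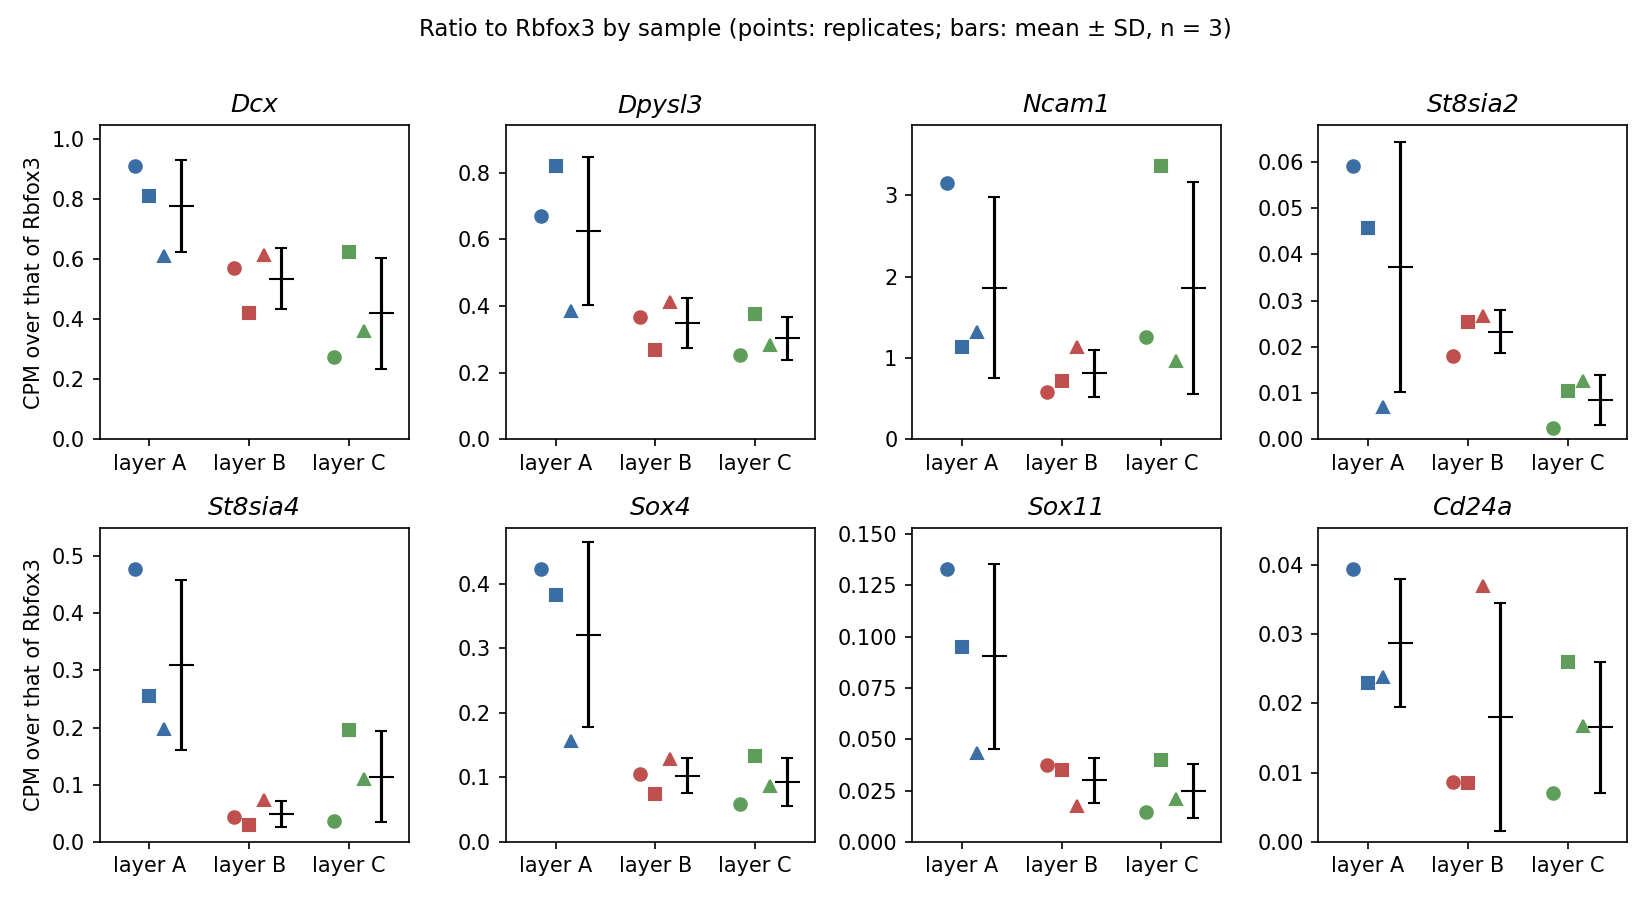
Normalized CPM of the 8 tested genes divided by that of Rbfox3 in the same sample (y axes, from 0) in layers A, B and C (x axes). Points are replicates and bars the mean and SD (n = 3). For Dcx the layer A ratios (0.610 to 0.911) reach above those of layers B and C and overlap both.

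The genes whose pattern over the 9 samples was most like that of Dcx were named by the smallest root mean square difference of log2(normalized CPM + 0.5), centred per gene, among 9249 genes with a mean count of at least 100. These were Npy1r (0.0938), a receptor of neuropeptide Y, Pcdhb19 (0.112), a clustered protocadherin, Itgbl1 (0.132), Phlpp2 (0.155), a phosphatase, and Ptprd (0.166), a receptor phosphatase. Npy1r was at 5.28 ± 0.625 normalized CPM (SD, n = 3) in layer A, 9.62 ± 0.917 in B and 6.38 ± 1.802 in C. Ptprd was the most abundant of the 5, at 84.7 ± 7.04, 162 ± 5.55 and 122 ± 37.6. Of the other immature neuron genes with enough counts, Dpysl3 ranked 57 of 9249 (0.244), Sox4 2969, Ncam1 7090 and St8sia4 7968, and Rbfox3 ranked 3725. All genes of 1 sample share its library, so these ranks are a description.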

How the data were processed

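RNA from laser-captured layers of piriform cortex was measured in 9 samples, 3 of each of the layers that the labels call A, B and C. Per the methods of the study, RNA was amplified, libraries did not keep strand, and reads of 50 bases from both fragment ends were aligned by the authors with Bowtie to mm10. The submitters' processing notes also name bcl2fastq 1.8.4 and HTSeq 0.5.3. The values deposited by the authors are raw, unnormalized counts of reads on Ensembl transcripts, and how reads on several transcripts were counted is not given in the sources used here. Amplification can distort levels, and shared reads can link isoforms.

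Of 95533 transcript identifiers, 82779 were found in GENCODE M21 (GRCm38, the assembly of mm10), which gave symbols, positions and lengths. Counts were tested with edgeR 4.0.16 in R 4.3.3 (TMM, quasi-likelihood F-tests of layer only, all 9 samples in 1 fit, at least 10 counts in at least 3 samples, Benjamini-Hochberg over 56416 transcripts, threshold 0.05). Ratios and comparisons of single values used two-sided exact permutation tests, with 0.5 added to both levels of the ratios to Rbfox3. The edgeR test was tried on simulated counts with planted changes, in which the layers otherwise shared the same composition. DESeq2 and the permutation tests were not tried in this way. The alternatives were DESeq2 1.42.0, other size factors, filters, features and samples in the fit, no mitochondrial transcripts, a replicate block and each sample left out. The second most abundant transcripts, the counts of listed genes under each alternative the St8sia2 and Ncam1 ratios (also with each sample left out) and ratios without a pseudocount were added after seeing the data. Near-identical stretches were searched with BLAST 2.17.0.

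The 9 genes, the gene lists and the tests were chosen with earlier results of these data known. Named are all 9 genes, of each other list at most 4 called genes per pair of layers by smallest p (any paralog or mature neuron gene), the 5 genes most like Dcx, and genes that a result turns on.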

Additional observations from a re-analysis of the deposited data

How the results depend on the processing

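The number of immature neuron genes called between layers A and B, 1 as reported, was 2 when each of the 9 samples had to reach 10 counts, with 1 transcript per gene, with DESeq2 and at an unadjusted p under 0.05, and 0 when 1 count in any sample sufficed, without mitochondrial transcripts, with only the 6 samples compared and in leave-one-out fits at the lowest (range 0 to 1). Between layers A and C it was 1 in place of 0 when 1 count in any sample sufficed, with 1 transcript per gene and at an unadjusted p under 0.05 (range 0 to 1 leaving out each sample). Between layers B and C it was 3 at an unadjusted p under 0.05. Among the 3 layers it was 1 when each of the 9 samples had to reach 10 counts, with at least 1 count in any sample and with DESeq2, and 4 without adjustment (range 0 to 1 leaving out each sample).

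With the replicate number as a replicate block, 0 genes were called between layers A and B (Dcx adjusted p = 0.0585, edgeR), and no other call of these genes changed. Correlations of same-numbered samples' deviations ranged from -0.216 to 0.271, and not every sample correlated best with its own number. With 3 samples per layer, these correlations cannot tell whether the numbers pair the samples. The reason for the loss of the Dcx call was not tested.

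Of 435 recomputed log2 differences, 405 kept their direction and side of the threshold. These include refits with the longest annotated transcript, which could not differ because it was also the most abundant. Fits without a sample of the layer not compared are counted too. In 12 (all Dcx between layers A and B) the call was lost, in 8 it was gained, and in 10 the sign turned. For Ncam1, layer B minus layer A was -0.61 with the second transcript and -0.0017 to 0.59 leaving out each sample. For Sox11 it was 0.0011 with at least 1 count in any sample, 0.037 with 1 transcript per gene and -0.27 to 0.26 leaving out each sample. For Cd24a, layer B minus layer A ranged from -0.27 to 0.96 and layer C minus layer B from -0.71 to 0.51 in this way. For Dpysl3, layer C minus layer A was -0.0075 with the second transcript. None of these was called in either setting, and the cause was not tested. With the mature neuron list in place of Rbfox3, 3 of 27 ratios moved beyond their spread, to -0.149 (Dcx, layer B minus layer A), -0.587 (Dpysl3, layer C minus layer B) and -0.614 (Igfbpl1, layer B minus layer A). The value of Igfbpl1, whose counts ran the other way (0, 0 and 1 in layer A, 1, 13 and 10 in B), follows the 0.5 added to each level and says nothing of this gene. Without the added 0.5, chosen after seeing the data, 1 of 24 ratios of the other 8 genes moved beyond its spread (St8sia2, layer C minus layer B, to -1.76).

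Depth limits St8sia2, Sox11, Igfbpl1 and Cd24a most: their counts were under 30 in several samples of layer A. Mitochondrial counts leave 6929782 to 19051783 other counts per layer A sample, against 22117880 or more in layer B. The longest annotated transcript was the most abundant of each of the 9 genes, so that alternative gave the same values.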
